A study of Drosophila melanogaster with 12 samples.

Results

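The genes described here are the nutrient-stress transcription factors *foxo* and *REPTOR*, the REPTOR partner *REPTOR-BP*, and the nutrient-responsive genes *Thor*, *Sesn* and *Lnk*. They were chosen by symbol from a list of starvation factors and targets, and all 6 were found among the 17185 gene IDs counted in every library. Whole *Drosophila melanogaster* larvae were sequenced as 12 libraries, 3 for each of 4 genotypes, to ask how loss of glycerol-3-phosphate dehydrogenase (*Gpdh1*) alone, or together with lactate dehydrogenase (*Ldh*), changes larval gene expression. All 4 genotypes are listed on w[1118]. The *Gpdh1* heterozygous controls carried Gpdh1[12]/+, and the *Gpdh1* mutants Gpdh1[12]/[14]. The double heterozygous controls carried Gpdh1[12]/+ together with Ldh[16]/+, and the double mutants had Gpdh1[12]/[14] combined with Ldh[16]/[17]. All 4 genotypes carry at least 1 mutant copy of *Gpdh1*, and both double groups also carry at least 1 mutant copy of *Ldh*. The series holds no group with 2 normal copies of *Gpdh1*. The mutations affect the whole animal. Larvae were aged for 60 hours at 25 °C and are labelled mid-L3, whereas the study's own legend names an earlier stage, so the exact stage is uncertain. The labels do not say whether the 3 libraries of a genotype came from separate cultures, so the p-values measure the spread between libraries, which may be technical.

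As background, insulin signalling and the kinase complex TORC1 tell a fly cell that nutrients are plentiful. When insulin signalling is strong, Akt phosphorylates FOXO and holds it in the cytoplasm. When TORC1 is active, it does the same to REPTOR. When either pathway weakens, the factor enters the nucleus and switches on genes that slow growth and protein synthesis, REPTOR together with its bZIP partner REPTOR-BP. Both factors are thus controlled mainly through the place of the protein, which transcript counts do not measure.

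Read counts were large enough for all 6 genes to pass the filter on low counts in every comparison. Raw counts per library ran from 952 to 1681 for *foxo*, from 443 to 1360 for *REPTOR*, from 153 to 645 for *REPTOR-BP*, from 1218 to 9238 for *Thor*, from 1464 to 2431 for *Sesn* and from 392 to 850 for *Lnk*. The libraries held 22339930 to 26605495 counts assigned to genes. In the BDGP6.54 annotation, *foxo* (FBgn0038197) lies on 3R from 14056945 to 14087978 on the plus strand, and *REPTOR* (FBgn0039209) lies on 3R from 24557368 to 24582864 on the minus strand. *REPTOR-BP* (FBgn0032202) lies on 2L from 10264125 to 10265229 and *Thor* (FBgn0261560) on 2L from 3478434 to 3479612, both on the plus strand. *Lnk* (FBgn0028717) lies on 3R from 25888542 to 25893270, and *Sesn* (FBgn0034897) on 2R from 23713900 to 23734846, again on the plus strand. *Sesn* shares 3097 of its 4760 exon bases with CG46429 on the same strand and 109 with mir-4979 on the other strand. Both are annotated genes that have no line in the count tables. Reads from the bases shared with CG46429 cannot be told apart from *Sesn* reads by strand, so the *Sesn* counts are less certain than the others. The strand setting of the counting, which bears on the bases shared with mir-4979, was not given in the sources used here.

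The targeted genes were examined first. In double mutants relative to their controls, the *Ldh* log2 fold change was -6.83 (SE 0.0846). *Ldh* was also lower in *Gpdh1* mutants, which are labelled with no *Ldh* mutation (-0.35, SE 0.0618, adjusted p = 0.00523). In double relative to *Gpdh1* heterozygous controls it was at -0.19 (SE 0.0621, adjusted p = 0.0473). *Gpdh1* was lower in both mutants. The *Gpdh1* log2 fold change was -0.85 (SE 0.123) in *Gpdh1* mutants and -2.98 (SE 0.0666) in double mutants, although both are labelled with the same alleles. The libraries within a genotype differed by more than sampling noise in all 12 pairs, with a chi-square per degree of freedom from 2.42, between double mutant replicates 1 and 2, to 118, between double heterozygous replicates 2 and 3. The biological coefficient of variation was 0.0372 in double mutants and 0.0981 to 0.198 in the other groups, so the results below were also computed with the double mutant libraries summed into 1. Fewer of all genes passed in that fit, so a call lost there is not particular to a gene. Leaving out any 1 library also lowered the genes passing in *Gpdh1* mutants relative to their controls. They numbered 1299 to 1677 higher and 1488 to 1933 lower, against 1898 and 2144 in the main fit. In double mutants relative to theirs, fewer passed too, except without double heterozygous replicate 2. A call lost in these fits is likewise not particular to a gene.

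Levels are given as CPM, counts relative to the library size after TMM scaling, and changes as log2 fold changes from edgeR's quasi-likelihood test with Benjamini-Hochberg adjustment over all genes tested. A gene passed at an adjusted p under 0.05, with no minimum fold. In *Gpdh1* mutants relative to *Gpdh1* heterozygous controls, *REPTOR*, *REPTOR-BP*, *Thor* and *Lnk* were higher, *foxo* was lower and *Sesn* did not pass. Of all 10592 genes tested in that comparison, 17.9% passed as higher and 20.2% as lower, so a single call among the 6 is not unusual. In double mutants relative to double heterozygous controls, *REPTOR*, *REPTOR-BP*, *Thor* and *Lnk* were again higher, and *foxo* and *Sesn* did not pass. There, 25.3% of 10650 genes passed as higher and 25.9% as lower. The median log2 fold change of the 6 genes was 0.40 in the first contrast and 0.79 in the second, against 0.012 and -0.029 over all genes. Because the RNA came from whole larvae, fewer cells of a type and less RNA per cell cannot be told apart in any of these values.

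**Figure D1:**
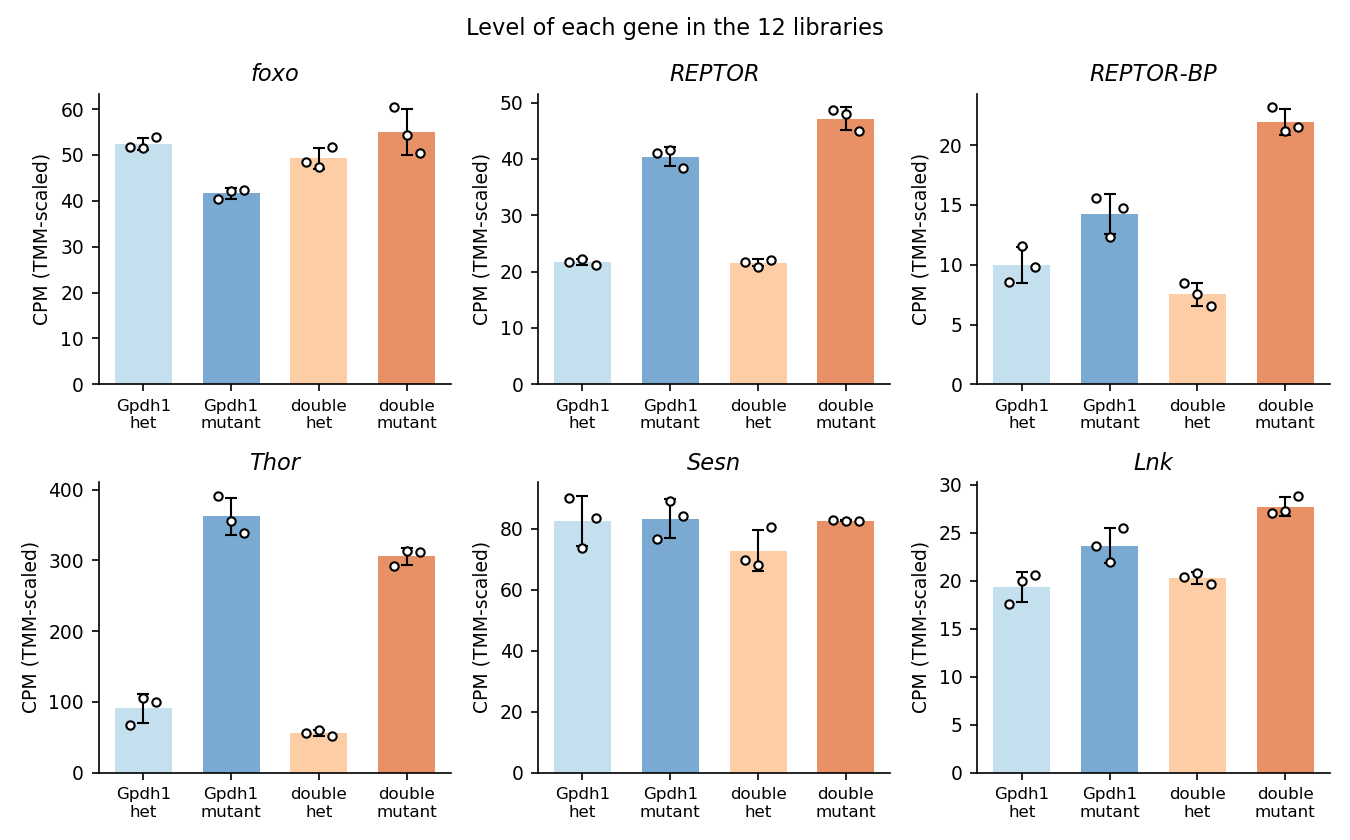
Level of each of the 6 genes in CPM (TMM-scaled, y axis, from 0) in the 4 genotypes; open circles are the 3 libraries, bars the mean and error bars 1 SD. *Thor* and *REPTOR* were separated between mutants and their controls in both pairs, whereas the *Sesn* libraries of *Gpdh1* mutants and their controls overlapped.

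*Thor* encodes 4E-BP, which binds the cap-binding protein eIF4E and holds back cap-dependent translation, and it is a classic target of FOXO and also of REPTOR. *Thor* showed the largest change of the 6 in both contrasts. It stood at 67.4, 105.6 and 99.8 CPM in the *Gpdh1* heterozygous controls and at 391, 356 and 339 CPM in the *Gpdh1* mutants. The double heterozygous controls held 56.1, 60.2 and 52.3 CPM and the double mutants 292, 313 and 313 CPM. All 6 mutant libraries lay above all 6 heterozygous libraries. *Thor* was 3.99-fold higher in *Gpdh1* mutants (log2 fold change 1.998, SE 0.168, adjusted p = 0.000435) and 5.44-fold higher in double mutants (log2 fold change 2.44, SE 0.0677, adjusted p = 3.65e-06). By log2 fold change it ranked 103 of 10592 genes in the first contrast and 150 of 10650 in the second. It passed in both contrasts under every alternative tried.

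The larger fold of *Thor* in the double contrast did not come with a higher level in the double mutants. Mean *Thor* was 306 ± 12.0 CPM (SD, n = 3) in double mutants and 362 ± 26.4 CPM (SD, n = 3) in *Gpdh1* mutants, while the controls stood at 56.2 ± 3.94 CPM and 90.9 ± 20.6 CPM (SD, n = 3 each). *Thor* was lower in double than in *Gpdh1* heterozygous controls (log2 fold change -0.69, SE 0.140, adjusted p = 0.00573). That call was lost when only the 6 control libraries entered the fit (log2 fold change -0.72, adjusted p = 0.0576). Over all genes, 292 then passed as higher and 567 as lower, against 1535 and 1339 in the main fit. Between the mutants the log2 fold change was -0.24 (SE 0.138, adjusted p = 0.189), and it passed with only the 6 mutant libraries in the fit (-0.25, adjusted p = 0.00831) or without *Gpdh1* heterozygous replicate 1 (-0.24, adjusted p = 0.0223). The difference between the contrasts was 0.45 (SE 0.197, adjusted p = 0.118, 95% confidence interval 0.016 to 0.88 before adjustment). Without *Gpdh1* heterozygous replicate 1, the library with the lowest *Thor* level of its group, that difference was 0.63 with an adjusted p of 0.00315.

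The partner that 4E-BP binds moved the other way. *eIF4E1*, the main cap-binding protein, stood at 330 ± 16.0 CPM in *Gpdh1* heterozygous controls, 285 ± 5.46 CPM in *Gpdh1* mutants, 378 ± 12.6 CPM in double heterozygous controls and 282 ± 5.62 CPM in double mutants (SD, n = 3 each). Its log2 fold change was -0.42 (SE 0.0480, adjusted p = 0.000625) in the double contrast and -0.21 (SE 0.0598, adjusted p = 0.0301) in the *Gpdh1* contrast. The second of these calls was lost when *Gpdh1* heterozygous replicate 1 (adjusted p = 0.0861) or *Gpdh1* mutant replicate 1 (0.102), 2 (0.0689) or 3 (0.0933) was left out. Scaling by the library total alone took it to -0.052 (adjusted p = 0.503). Summing the double mutant libraries ended the other (-0.43, adjusted p = 0.0578). Per kilobase of exon, the ratio of *Thor* to *eIF4E1* transcripts was 0.823 ± 0.219 in *Gpdh1* heterozygous controls, 3.77 ± 0.335 in *Gpdh1* mutants, 0.441 ± 0.0449 in double heterozygous controls and 3.21 ± 0.0857 in double mutants (SD, n = 3 each). By this measure, which divides by all merged exons of each gene, the ratio was below 1 in every control library and above 1 in every mutant library. *Gpdh1* heterozygous replicates 2 and 3 were close to 1, at 0.980 and 0.917. Which transcript was the more abundant there depends on the exon length used.

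**Figure D2:**
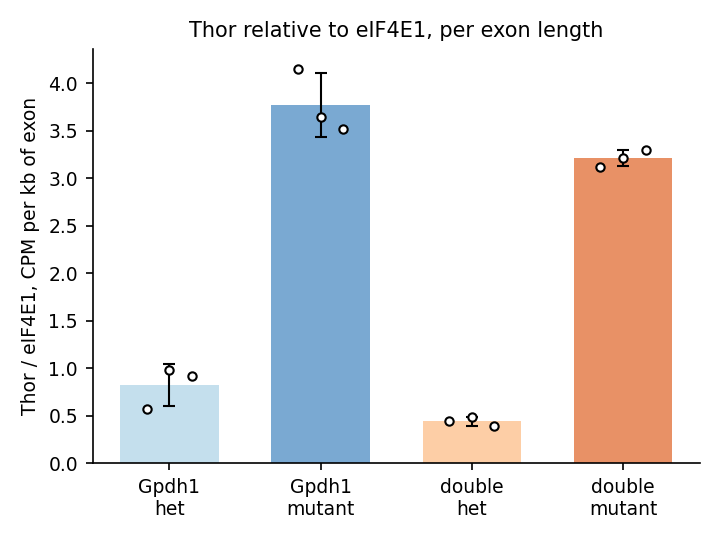
Ratio of *Thor* to *eIF4E1*, both in CPM per kilobase of exon (y axis, from 0), in the 4 genotypes; open circles are libraries, bars the mean and error bars 1 SD. The mutant libraries lie between 3.12 and 4.15 and the heterozygous libraries between 0.395 and 0.980.

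*REPTOR* encodes the bZIP factor that TORC1 keeps out of the nucleus. Its level was 21.7, 22.3 and 21.1 CPM in *Gpdh1* heterozygous controls and 41.0, 41.6 and 38.5 CPM in *Gpdh1* mutants. Double heterozygous controls held 21.7, 20.8 and 22.04 CPM, and double mutants 48.6, 48.0 and 44.9 CPM. Both sets of controls overlapped, and the 3 double mutant libraries lay above the 3 *Gpdh1* mutant libraries. *REPTOR* was 1.86-fold higher in *Gpdh1* mutants (log2 fold change 0.90, SE 0.0587, adjusted p = 0.000236) and 2.19-fold higher in double mutants (log2 fold change 1.13, SE 0.0533, adjusted p = 1.94e-05). Both calls held under every alternative. Between the controls its log2 fold change was -0.013 (adjusted p = 0.885, 95% confidence interval -0.13 to 0.10).

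The step from *Gpdh1* mutants to double mutants was small for *REPTOR*. That step was 0.22 in log2 CPM (SE 0.0494, adjusted p = 0.00455), and the 2 contrasts differed by 0.24 (SE 0.0713, adjusted p = 0.0324). With the double mutant libraries summed into 1, neither passed (adjusted p = 0.0621 and 0.102). The latter also failed to pass without *Gpdh1* heterozygous replicate 1 (0.24, adjusted p = 0.056) or 2 (0.22, 0.0715), double heterozygous replicate 1 (0.24, 0.0553) or 2 (0.21, 0.0621), or double mutant replicate 1 (0.25, 0.0525), and with voom (0.24, 0.0587).

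*REPTOR-BP* encodes the bZIP partner with which REPTOR binds DNA. It had the fewest counts of the 6 genes. It stood at 8.58, 11.6 and 9.78 CPM in *Gpdh1* heterozygous controls and at 15.6, 12.4 and 14.8 CPM in *Gpdh1* mutants. Double heterozygous controls held 8.50, 7.53 and 6.57 CPM and double mutants 23.2, 21.2 and 21.5 CPM. No 2 genotypes overlapped, and the order from low to high was double heterozygous controls, *Gpdh1* heterozygous controls, *Gpdh1* mutants and double mutants. The gaps between the 2 sets of controls and between *Gpdh1* heterozygous controls and *Gpdh1* mutants were narrow, at 8.50 against 8.58 CPM and 11.6 against 12.4 CPM.

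In the double contrast *REPTOR-BP* was 2.91-fold higher (log2 fold change 1.54, SE 0.0989, adjusted p = 6.31e-05), and this held under every alternative. In the *Gpdh1* contrast it was 1.43-fold higher (log2 fold change 0.52, SE 0.135, adjusted p = 0.0216). That call was lost without *Gpdh1* heterozygous replicate 1 (0.42, adjusted p = 0.0526) or 3 (0.50, 0.0596), or without *Gpdh1* mutant replicate 1 (0.46, 0.0696) or 3 (0.50, 0.0706). The difference between the contrasts was 1.03 (SE 0.178, adjusted p = 0.00232) and passed under every alternative. *REPTOR-BP* was 0.62 higher on the log2 scale in double than in *Gpdh1* mutants (SE 0.121, adjusted p = 0.00218). It was 0.40 lower on that scale in double than in *Gpdh1* heterozygous controls (log2 fold change -0.40, SE 0.131, adjusted p = 0.0435). The control call was lost without *Gpdh1* heterozygous replicate 2 (-0.28, adjusted p = 0.156) or 3 (-0.42, 0.0787), without double heterozygous replicate 2 (-0.40, 0.0898) or 3 (-0.31, 0.123), and with only the 6 control libraries in the fit (-0.42, 0.111). It was also lost with voom (-0.39, adjusted p = 0.107), with no filter on low counts (-0.40, 0.052) and with library totals alone (-0.27, 0.122).

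Relative to each other, the 2 partners are compared here per exon length. Per kilobase of exon, the ratio of *REPTOR-BP* to *REPTOR* was 5.16 ± 0.702 in *Gpdh1* heterozygous controls, 3.98 ± 0.556 in *Gpdh1* mutants, 3.94 ± 0.534 in double heterozygous controls and 5.24 ± 0.231 in double mutants (SD, n = 3 each). *REPTOR-BP* was therefore the more abundant transcript per length in all 12 libraries. No test was run on this ratio.

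*foxo* encodes the forkhead factor that Akt inactivates. Unlike *REPTOR*, its transcript was lower in *Gpdh1* mutants. The *Gpdh1* heterozygous controls held 51.8, 51.6 and 53.9 CPM and the *Gpdh1* mutants 40.3, 42.2 and 42.4 CPM. The double heterozygous controls held 48.6, 47.4 and 51.8 CPM and the double mutants 60.4, 54.4 and 50.4 CPM. The *Gpdh1* mutants lay below every other group, and the other 3 groups overlapped along the order of their means. The log2 fold change was -0.33 in the *Gpdh1* contrast (SE 0.0509, adjusted p = 0.00307), which held under every alternative. In the double contrast it was 0.16 (SE 0.0772, adjusted p = 0.13, 95% confidence interval -0.027 to 0.34), and it passed when libraries were scaled by their totals alone (0.32, adjusted p = 0.0108).

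The 2 contrasts of *foxo* differed by 0.49 on the log2 scale (SE 0.0923, adjusted p = 0.00338), and *foxo* was 0.40 higher in double than in *Gpdh1* mutants (SE 0.0653, adjusted p = 0.000729). Both calls held under every alternative. Between the controls *foxo* stood at -0.090 (log2 fold change, adjusted p = 0.338), and its sign turned to 0.036 with library totals alone.

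*Sesn* encodes Sestrin, which restrains TORC1 and is induced by stress in many settings. It stood at 90.1, 73.7 and 83.5 CPM in *Gpdh1* heterozygous controls and at 76.4, 89.0 and 84.1 CPM in *Gpdh1* mutants. Double heterozygous controls held 69.7, 67.9 and 80.6 CPM and double mutants 82.9, 82.4 and 82.5 CPM. The double mutant libraries lay above all 3 of their controls, and the other neighbours in order overlapped. In the *Gpdh1* contrast *Sesn* was at 0.016 (SE 0.0914, adjusted p = 0.908), with a 95% confidence interval of -0.20 to 0.23. In the double contrast it was 0.18 (SE 0.0742, adjusted p = 0.082, 95% confidence interval 0.00322 to 0.36 before adjustment). It passed there with DESeq2 (0.20, adjusted p = 0.0201), with limma's voom (0.19, 0.0446), with library totals alone (0.35, 0.0044) and without double heterozygous replicate 3 (0.27, 0.00641), the highest library of its group. The difference between the contrasts was 0.17 (SE 0.124, adjusted p = 0.343, 95% confidence interval -0.10 to 0.44).

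*Lnk* encodes an SH2B-family adaptor that works with the insulin receptor. Its level was 17.6, 19.9 and 20.6 CPM in *Gpdh1* heterozygous controls and 23.6, 21.9 and 25.5 CPM in *Gpdh1* mutants. Double heterozygous controls held 20.4, 20.8 and 19.7 CPM and double mutants 27.05, 27.2 and 28.9 CPM. The controls overlapped each other and lay below both mutants, and the double mutants lay above the *Gpdh1* mutants. *Lnk* was 1.36-fold higher in double mutants (log2 fold change 0.45, SE 0.0509, adjusted p = 0.000631), under every alternative. In *Gpdh1* mutants it was 1.22-fold higher (log2 fold change 0.29, SE 0.0891, adjusted p = 0.0381).

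The call of the smaller *Lnk* change was lost in 4 of the 6 fits that left out 1 library. Its value stayed between 0.22 and 0.35 in all 6, and fewer of all genes passed in each of those fits. It did not pass without *Gpdh1* heterozygous replicate 1 (0.22, adjusted p = 0.101) or 2 (0.31, 0.0663), or without *Gpdh1* mutant replicate 1 (0.30, 0.0832) or 3 (0.24, 0.119). The difference between the contrasts was 0.16 (SE 0.100, adjusted p = 0.269, 95% confidence interval -0.061 to 0.38). *Lnk* was 0.23 higher in double than in *Gpdh1* mutants (SE 0.0701, adjusted p = 0.0249), a call lost without *Gpdh1* mutant replicate 1 (0.23, adjusted p = 0.062) or 2 (0.18, 0.0867), without double mutant replicate 3 (0.20, 0.0808), or with the double mutants summed (0.23, 0.173).

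**Figure D3:**
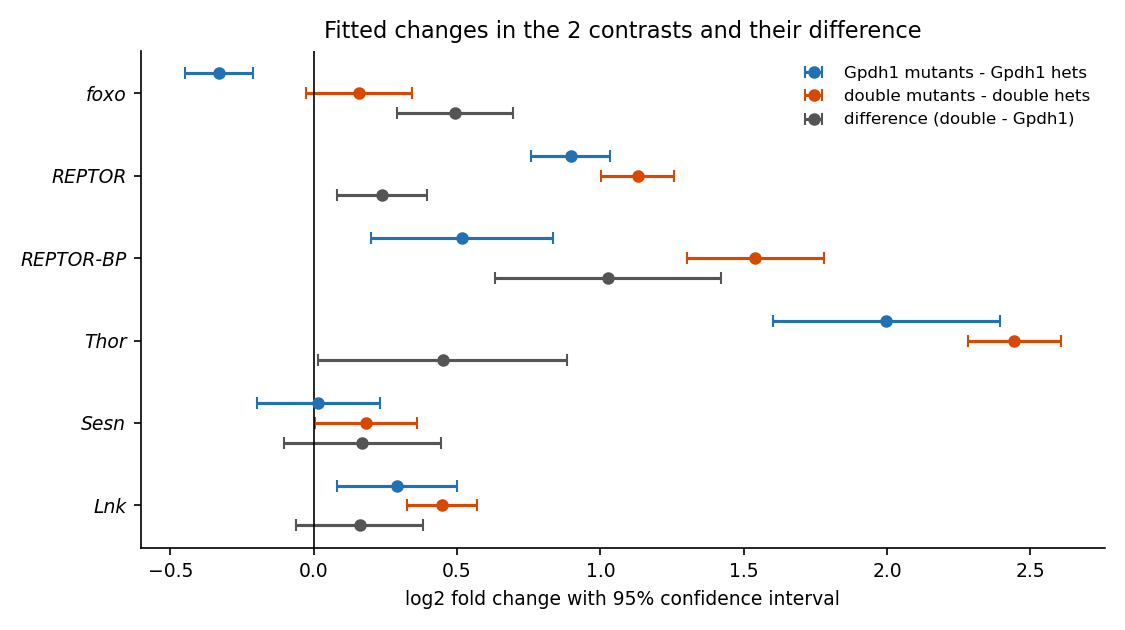
Log2 fold change (x axis) with its 95% confidence interval for each gene in the *Gpdh1* contrast (blue), the double contrast (orange) and the difference between them (grey). *foxo* lies at -0.33 and 0.16 in the 2 contrasts, and *REPTOR-BP* at 0.52 and 1.54.

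The difference between the contrasts passed for 3 of the 6 genes (*foxo*, *REPTOR* and *REPTOR-BP*), each larger in the double contrast. *Thor* (0.45), *Sesn* (0.17) and *Lnk* (0.16) also had larger values there but did not pass. Of 10880 genes, 12.0% passed in that direction and 13.5% in the other. Between the mutants, 4 of 6 passed as higher in double mutants, against 18.9% of 10880 genes higher and 20.0% lower. Between the controls, 2 of 6 passed as lower in double heterozygous controls, against 14.1% of 10880 genes higher and 12.3% lower. These 3 comparisons share libraries with each other and with the 2 contrasts above, so they are not separate evidence. Leaving out double heterozygous replicate 2, which stood furthest from its group, left the same 4 genes higher in the double contrast.

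**Figure D4:**
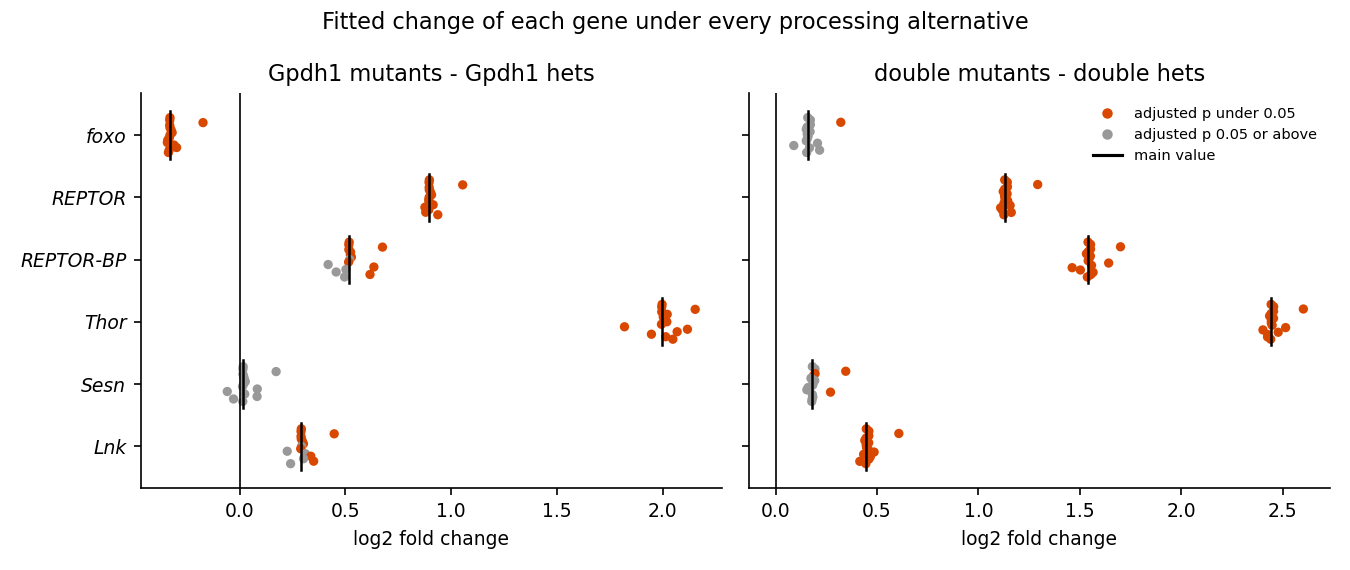
Log2 fold change (x axis) of each gene in the *Gpdh1* contrast (left) and the double contrast (right) under the main setting (black line) and every setting run (points; orange, adjusted p under 0.05, grey, 0.05 or above). *Thor* and *REPTOR* stay orange throughout, whereas *REPTOR-BP* and *Lnk* turn grey under several settings in the *Gpdh1* contrast only.

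Compared per kilobase of exon, *Thor* was the most abundant of the 6 transcripts in every group, at 74.4 to 480 CPM per kilobase. *REPTOR-BP* (11.9 to 34.6), *Sesn* (15.3 to 17.5) and *foxo* (10.1 to 13.3) followed, in an order that differed between groups. *Sesn* was above *REPTOR-BP* in both sets of controls and below it in both mutants. *Lnk* (5.81 to 8.31) and *REPTOR* (3.02 to 6.61) were lowest, each range being that of the 4 group means. *REPTOR* was thus the scarcest of the factors per length even where its change was large.

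The other genes of these pathways were taken from 6 lists, and a gene is named where it had the highest or lowest change among those that passed in the double contrast. Over all genes, 17.9% passed as higher and 20.2% as lower in the *Gpdh1* contrast, and 25.3% and 25.9% in the double contrast. Each list count below stands against those shares, and each list median against 0.012 and -0.029 over all genes. Of 11 genes that carry the insulin signal, 5 were higher and none lower in *Gpdh1* mutants, and 4 were higher and 1 lower in double mutants (median log2 fold change 0.19 and 0.038). *InR*, the insulin receptor and itself a FOXO target, was at 11.8, 14.5 and 18.4 CPM in *Gpdh1* heterozygous controls and at 35.3, 27.1 and 37.1 CPM in *Gpdh1* mutants. It was at 21.0, 24.9 and 20.7 CPM in double heterozygous controls and at 49.5, 45.7 and 42.4 CPM in double mutants. The groups did not overlap within either pair, and the log2 fold change was 1.16 (SE 0.182, adjusted p = 0.00332) and 1.05 (SE 0.0917, adjusted p = 0.000218). *Pdk1*, the kinase that activates Akt, rose by 0.59 (adjusted p = 0.00131) and 0.85 (adjusted p = 0.000101), and *Pi3K92E*, the catalytic subunit of PI3-kinase, by 0.41 (adjusted p = 0.00198) and 0.42 (adjusted p = 0.000372).

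The controls of this list differed: 5 of 11 genes passed as higher and none as lower in double than in *Gpdh1* heterozygous controls. Over all genes, 14.1% and 12.3% did so. *Akt*, the kinase that inactivates FOXO, was 0.23 higher on the log2 scale in *Gpdh1* mutants (adjusted p = 0.0153), and was at -0.055 in double mutants (adjusted p = 0.459). Mean *Akt* was 71.8 CPM in *Gpdh1* mutants and 68.9 CPM in double mutants. Its controls stood at 61.4 CPM (*Gpdh1* heterozygous) and 71.5 CPM (double heterozygous). The *Akt* call was lost without *Gpdh1* mutant replicate 1 (0.22, adjusted p = 0.0527) or 3 (0.23, 0.0539), and without replicate 3 the count of insulin-branch genes called fell from 5 to 3. *Pi3K21B*, the regulatory subunit of PI3-kinase, was at 0.073 (adjusted p = 0.57) and -0.24 (adjusted p = 0.017). Its second value did not pass without double mutant replicate 2 (-0.25, adjusted p = 0.0573) or 3 (-0.22, 0.064).

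Of 21 genes of the TORC1 and AMPK branch, 4 were higher and 2 lower in *Gpdh1* mutants, and 8 were higher and 2 lower in double mutants. The 4 higher in *Gpdh1* mutants are near the 17.9% of all genes that passed as higher there. The share over all genes was 25.3% higher in the double contrast. The list median was -0.018 and 0.065, against 0.012 and -0.029 over all genes. The largest change was that of *PRAS40*, an inhibitor of TORC1. It stood at 27.1, 32.9 and 28.9 CPM in *Gpdh1* heterozygous controls, 32.5, 30.4 and 31.5 CPM in *Gpdh1* mutants, 24.0, 25.6 and 24.0 CPM in double heterozygous controls and 51.2, 51.1 and 51.8 CPM in double mutants. Only the double mutants lay apart from the other 3 groups by a wide gap. Its log2 fold changes were 0.091 (adjusted p = 0.411) and 1.07 (adjusted p = 1.5e-05), which is 0.98 apart (SE 0.0931, adjusted p = 9.9e-05).

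The energy-sensing kinase AMPK inhibits TORC1. Its catalytic subunit *AMPKalpha* was at 0.041 (adjusted p = 0.739) and 0.49 (adjusted p = 0.000904), and its gamma subunit *SNF4Agamma* at 0.16 (adjusted p = 0.0467) and 0.52 (adjusted p = 0.000251). The weak *SNF4Agamma* call in *Gpdh1* mutants was lost whichever single library was left out, with adjusted p from 0.0635 to 0.121. The beta subunit *alc*, named after its values were seen, was at -0.10 (adjusted p = 0.163) and 0.29 (adjusted p = 0.00802), so all 3 AMPK subunits were higher in double mutants. *mTor*, the kinase of TORC1, was at -0.073 (adjusted p = 0.362) and -0.32 (adjusted p = 0.00342), and its target kinase *S6k* at -0.10 (adjusted p = 0.233) and 0.065 (adjusted p = 0.426). *Nprl3*, part of the GATOR1 inhibitor of TORC1, was at -0.19 (adjusted p = 0.269) and -0.29 (adjusted p = 0.0228), and its second value did not pass without double heterozygous replicate 1 (-0.24, adjusted p = 0.0749) or double mutant replicate 1 (-0.24, 0.0804) or 2 (-0.28, 0.0736).

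Of 9 tested genes listed as other targets or effectors of starvation, 5 were higher in *Gpdh1* mutants, and 7 were higher and 1 lower in double mutants (median log2 fold change 0.31 and 0.87). *CG6770*, a gene known to respond to REPTOR, rose by 1.11 (SE 0.0994, adjusted p = 0.000538) and 1.85 (SE 0.0571, adjusted p = 4.41e-06). *Atg8a*, which coats autophagosomes, rose by 0.50 (adjusted p = 0.0149) and 0.99 (adjusted p = 2.23e-05), the first of which was lost without *Gpdh1* mutant replicate 3 (0.47, adjusted p = 0.0534). *ImpL2*, a secreted protein that binds insulin-like peptides and restrains their action, was at -0.12 (adjusted p = 0.184) and -0.63 (adjusted p = 0.000351). The controls of this list differed: 1 gene passed as higher and 5 as lower in double than in *Gpdh1* heterozygous controls (median -0.31). Between the mutants, 3 passed as higher and 1 as lower in double mutants (median 0.13). Over all genes, 14.1% passed as higher and 12.3% as lower between controls, and 18.9% and 20.0% between mutants. The fat-body insulin-like peptide *Ilp6* and the lipase *bmm*, both named after their values were seen and both known to rise when FOXO is active, were at 0.074 (adjusted p = 0.603) and 0.096 (adjusted p = 0.789) in *Gpdh1* mutants and at 0.87 (adjusted p = 0.00138) and 0.95 (adjusted p = 0.00471) in double mutants. Mean *bmm* was 38.5 CPM in *Gpdh1* mutants and 37.6 CPM in double mutants. Its controls stood at 36.0 CPM (*Gpdh1* heterozygous) and 19.5 CPM (double heterozygous), so the larger *bmm* fold came with a lower control level. *Lip4*, of the same list, was at 23.9 and 16.9 CPM in *Gpdh1* heterozygous controls and mutants. It was at 10.4 and 15.0 CPM in double heterozygous controls and double mutants.

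**Figure D5:**
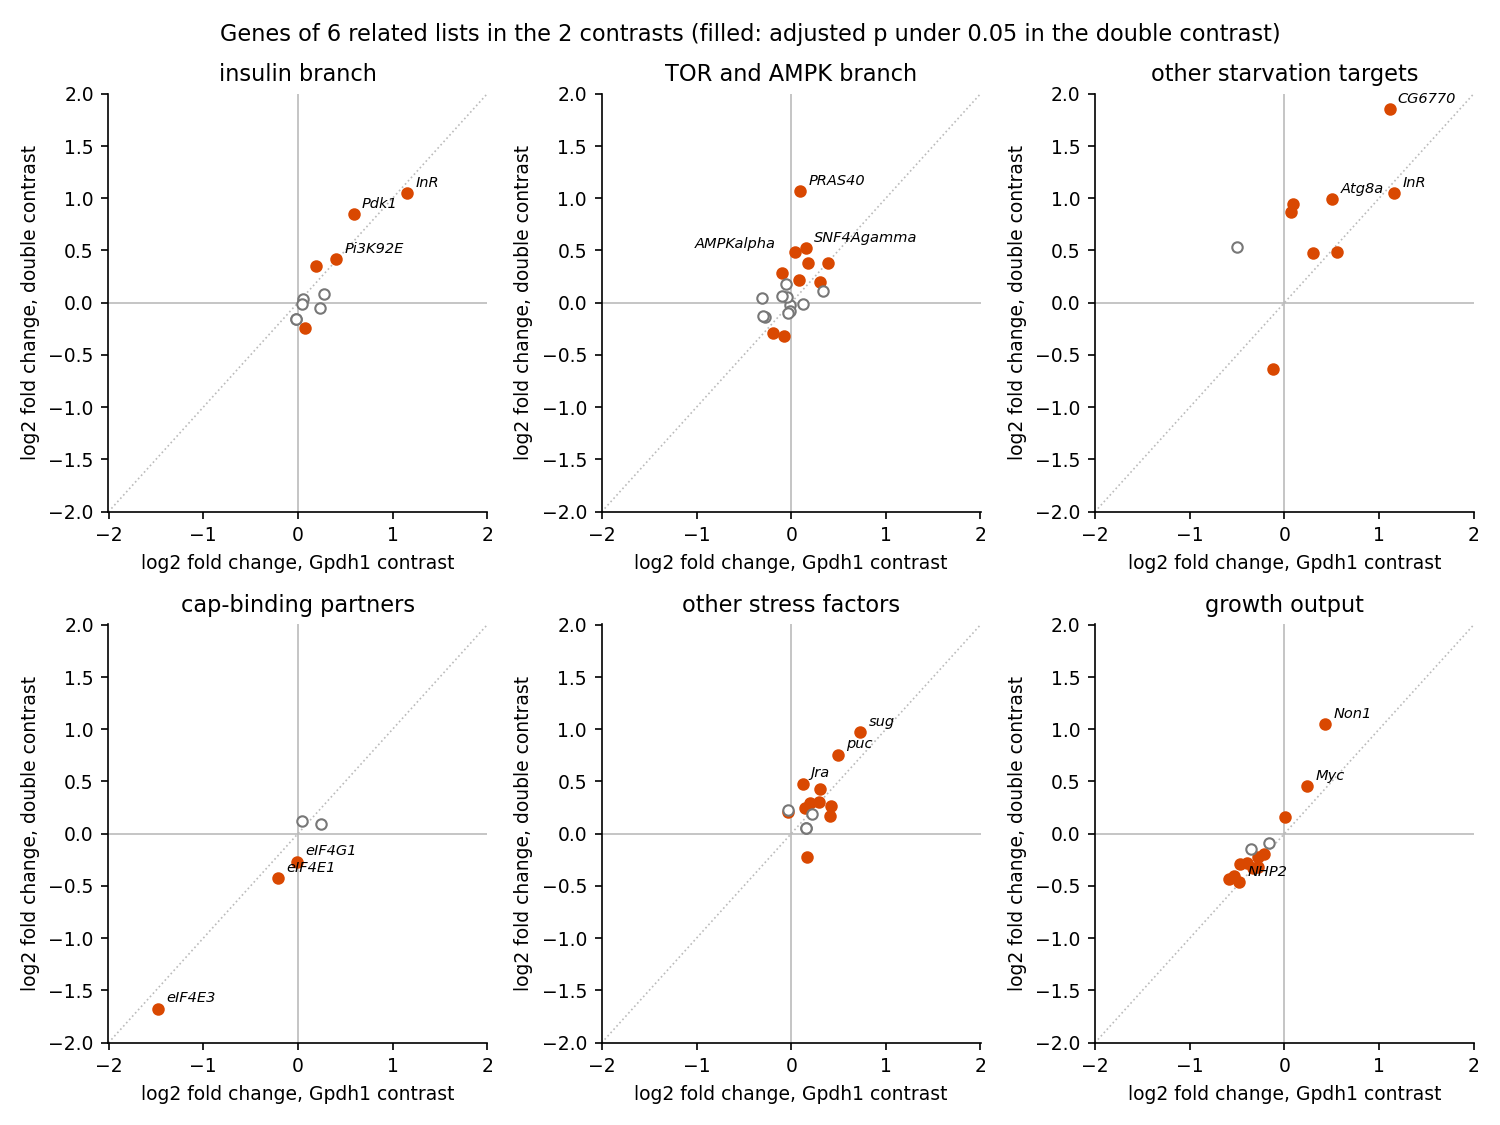
Log2 fold change in the *Gpdh1* contrast (x axis) against that in the double contrast (y axis) for genes of the 6 lists; each point is a gene, filled where it passed in the double contrast, and the dotted line marks equal change. *PRAS40* lies at 0.091 and 1.07, *InR* close to the line at 1.16 and 1.05, and *eIF4E3* at -1.47 and -1.68.

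Of 5 tested genes for cap-binding proteins and their partners, 1 was higher and 2 lower in *Gpdh1* mutants, and none higher and 3 lower in double mutants. Without *Gpdh1* mutant replicate 1 or 3, only 1 of the 5 passed in *Gpdh1* mutants. *eIF4E3*, a further eIF4E isoform, fell by 1.47 on the log2 scale (adjusted p = 0.000697) and by 1.68 (adjusted p = 0.000175). Its level was low, with means of 7.45 and 2.67 CPM in *Gpdh1* heterozygous controls and mutants. The double heterozygous controls and double mutants held 7.23 and 2.26 CPM, where *eIF4E1* stood at 378 and 282 CPM. *eIF4G1*, the scaffold that 4E-BP displaces, was at -0.0060 (adjusted p = 0.956) and -0.27 (adjusted p = 0.0143), and the second value did not pass without double heterozygous replicate 1 (-0.22, adjusted p = 0.0506).

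Of 15 other stress-response factors, 6 were higher in *Gpdh1* mutants, and 10 were higher and 1 lower in double mutants. *puc*, the feedback phosphatase of the JNK pathway, rose by 0.49 (adjusted p = 0.00217) and 0.76 (adjusted p = 0.000409), and *Jra*, the fly Jun, was at 0.12 (adjusted p = 0.117) and 0.48 (adjusted p = 0.000486). The sugar-responsive factor *sug* was at 0.73 (SE 0.309, adjusted p = 0.103) and 0.97 (adjusted p = 0.00237). The first *sug* value passed without *Gpdh1* heterozygous replicate 2 (1.17, adjusted p = 0.00739). *crc*, the fly ATF4 and another activator of *Thor*, was at 0.41 (adjusted p = 0.00305) and 0.17 (adjusted p = 0.0396). The second *crc* value did not pass without double heterozygous replicate 1 (0.19, adjusted p = 0.0688) or 3 (0.19, 0.0652), or without double mutant replicate 1 (0.16, 0.129) or 2 (0.14, 0.14). The heat-shock factor *Hsf* was at 0.17 (adjusted p = 0.1) and -0.23 (adjusted p = 0.00824), and the first value passed without *Gpdh1* heterozygous replicate 1 (0.22, adjusted p = 0.0433).

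Of 14 genes of ribosome production and growth, 1 was higher and 11 lower in *Gpdh1* mutants, and 3 were higher and 9 lower in double mutants (median log2 fold change -0.30 and -0.25). The small nucleolar ribonucleoprotein genes *Fib*, *Nop60B* and *NHP2* fell by 0.58, 0.53 and 0.48 in *Gpdh1* mutants (adjusted p = 0.00323, 0.00618 and 0.00398) and by 0.43, 0.40 and 0.46 in double mutants (adjusted p = 0.00282, 0.0031 and 0.0022). *Non1*, a nucleolar GTPase, instead rose by 0.43 (adjusted p = 0.00534) and 1.05 (adjusted p = 0.000107). The growth regulator *Myc* was at 0.24 (adjusted p = 0.259) and 0.45 (adjusted p = 0.016). Its first value passed without *Gpdh1* mutant replicate 2 (0.41, adjusted p = 0.0134), and its second did not pass without double mutant replicate 1 (0.39, 0.0591) or 2 (0.39, 0.0604). *Ns2* was at 0.0077 (adjusted p = 0.949) and 0.16 (adjusted p = 0.0492), and its second value was lost whichever of 5 of the 6 libraries was left out, double heterozygous replicate 2 being the exception, with values from 0.13 to 0.18.

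The counts of the growth list depended on scaling. With libraries scaled by their totals alone, an alternative chosen after the data were seen, the median of all genes moved to 0.17 in the *Gpdh1* contrast and 0.13 in the double contrast. All genes called then split into 3571 higher and 1262 lower in the first, against 1898 and 2144 in the main fit, and into 3705 and 1463 in the second, against 2690 and 2757. The growth genes called lower then numbered 5 in place of 11 and 1 in place of 9, and the other stress factors called higher in *Gpdh1* mutants 13 in place of 6. *Pi3K21B*, *mTor*, *Nprl3*, *eIF4G1*, *Hsf*, *Fib* and *Nop60B* then did not pass in the double contrast (adjusted p from 0.0522 to 0.337). Without *Gpdh1* mutant replicate 1 or 3, 6 growth genes were called lower in *Gpdh1* mutants. With the double mutants summed into 1, *Fib* was at -0.44, *NHP2* at -0.47 and *Nop60B* at -0.41 in the double contrast. *Thor* was at 2.44, *REPTOR* at 1.13, *REPTOR-BP* at 1.54 and *Lnk* at 0.45. Fewer of all genes passed in that fit, so its calls are not compared between lists here.

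For each of the 6 genes, the 3 genes with the most similar profile over the 12 libraries were sought among 8285 genes with a mean of at least 5 CPM. Likeness was the root mean square difference of centred log2 CPM, which is a description with no test. Nearest to *REPTOR* were *CG10433* (0.0945), *ref(2)P* (0.109), which encodes the autophagy receptor p62, and *CG15098* (0.118), against a spread of *REPTOR* itself of 0.513. Nearest to *Thor*, with a spread of 1.15, were *CG10799* (0.244) and the detoxification genes *Cyp4p1* (0.259) and *Ugt49C1* (0.310). *REPTOR-BP*, with a spread of 0.593, was most like the cytochrome P450 gene *Cyp6a9* (0.165), *CG42525* (0.177) and *CG32485* (0.178).

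*Lnk*, with a spread of 0.214, was most like *Cdk5alpha* (0.0587), *Rheb* (0.0654), the GTPase that activates TORC1, and *CG17746* (0.0712). *Rheb* was at 0.18 (adjusted p = 0.107) and 0.38 (adjusted p = 0.000507) in the 2 contrasts. *foxo*, with a spread of 0.164, was most like *Ugt36E1* (0.0791), *Dhrs4* (0.0850) and *ORMDL* (0.0892). *Sesn*, with a spread of 0.123, was most like *CG9646* (0.0682), *Hex-A* (0.0793) and *lncRNA:CR42549* (0.0824).

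Markers of larval tissues moved with genotype. Their counts stand against 17.9% of all genes higher and 20.2% lower in the *Gpdh1* contrast, and 25.3% and 25.9% in the double contrast. Summed over 11 midgut markers, the level was 1121 to 2225 CPM in *Gpdh1* heterozygous controls, 1552 to 1985 CPM in *Gpdh1* mutants, 2084 to 2159 CPM in double heterozygous controls and 4860 to 5176 CPM in double mutants. Of the 10 tested, 6 were higher in the *Gpdh1* contrast and 9 in the double contrast. Summed over 13 muscle markers, the level was 69473 to 72603, 50487 to 56869, 62220 to 69070 and 49839 to 50930 CPM in the same order, with 10 and 12 of 13 lower. The sum of 8 fat body markers was 10011 to 16138, 4167 to 5197, 6637 to 11520 and 4324 to 4599 CPM, with 4 of 7 and 4 of 6 lower and 2 and 1 higher. In each group, 3 of the 8 had a mean under 1 CPM. Among those with lower means in both mutants, *Lsp1beta* was at 3130, 81.6, 1681 and 8.97 CPM, in the same order. *Lsp1gamma* was at 2094, 15.4, 902 and 3.70 CPM. These 2 genes do not stand for the whole list, in which 2 and 1 markers passed as higher. The study reports a developmental arrest of double mutants. Whether mutants and controls were at the same developmental stage was not tested in any contrast.

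Summed over 12 cuticle markers, the level was 3790 to 5578, 1532 to 1665, 925 to 2209 and 1234 to 1258 CPM, with 11 of 11 lower in *Gpdh1* mutants and 1 higher and 1 lower of 11 in double mutants. The sum of 7 hemocyte markers was 424 to 458, 341 to 362, 409 to 462 and 266 to 270 CPM, with 5 and 6 of 7 lower, and that of 10 neuron markers was 310 to 323, 363 to 405, 301 to 333 and 370 to 432 CPM, with 5 and 7 of 10 higher. No marker was at 0 in every library of a group. The midgut sums overlapped between *Gpdh1* mutants and their controls, and the cuticle sums between double mutants and theirs. In the other pairs of these lists the mutants and their controls did not overlap, and the part of these lists in the results for *Thor*, *REPTOR*, *REPTOR-BP* and *Lnk* was not tested.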

How the data were processed

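Per the labels, total RNA from whole larvae was sequenced. The authors deposited whole-number counts per gene. The submitters' processing notes name bcl2fastq 2.20.0.422, cutadapt 1.12, HISAT2 2.1.0 and HTSeq 0.9.0. Genome build and strand setting were not given in the sources used here, and the study's methods name a Salmon, tximport and DESeq2 route for its own table. The 5 summary lines of each file were left out of library sizes; they amounted to 10.9% to 17.5% of all lines' counts. Symbols were matched for 17059 of 17185 gene IDs.

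Counts were fitted with edgeR 4.0.16 (quasi-likelihood, TMM scaling, filterByExpr with a minimum count of 10) in R 4.3.3. The 2 mutant contrasts used their own 6 libraries, and the other 3 comparisons all 12. DESeq2 1.42.0, limma 3.58.1 (voom), other scalings, filters, a replicate block, summed double mutants and leaving out each library were alternatives. Lists gave at most 3 named genes at each end of those passing in the double contrast, with *InR*, *eIF4E1*, *crc*, *Akt* and *S6k* always named. Genes and lists were chosen with earlier results of these data known. Code was tested on simulated data.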

Additional observations from a re-analysis of the deposited data

Results flagged for a closer look

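A change that differed between the 2 contrasts was listed for a closer look where the difference itself passed the edgeR test over all 12 libraries (difference of log2 fold changes, double contrast minus *Gpdh1* contrast). Among the 6 genes these were *foxo* (0.49), *REPTOR* (0.24) and *REPTOR-BP* (1.03). *foxo* was lower in *Gpdh1* mutants only, *REPTOR-BP* rose further in double mutants, and the *REPTOR* difference was lost in several fits.

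In the TORC1 and AMPK branch the differences were 0.98 for *PRAS40*, 0.45 for *AMPKalpha*, 0.37 for *SNF4Agamma* and -0.25 for *mTor*. In the insulin branch the difference was -0.28 for *Akt*. Mean *Akt* was 61.4 and 71.5 CPM in *Gpdh1* and double heterozygous controls, and 71.8 and 68.9 CPM in *Gpdh1* and double mutants. Among targets and effectors of starvation they were 0.75 for *CG6770*, 0.49 for *Atg8a* and -0.51 for *ImpL2*. Among other stress factors and growth genes they were 0.36 for *Jra*, -0.39 for *Hsf* and 0.62 for *Non1*. With 3 libraries in each group, no test for single outlying libraries was run.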

How the results depend on the processing

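The 4 genes higher in the double contrast kept their direction and their call under every alternative run, as did *foxo*, *REPTOR* and *Thor* in the *Gpdh1* contrast. The count of the 6 genes called in the *Gpdh1* contrast was 5 and ranged from 3 to 5 when 1 library was left out. Over all genes, 1299 to 1677 then passed as higher and 1488 to 1933 as lower, against 1898 and 2144 in the main fit. Replicate numbers did not pair the libraries: deviations of same-numbered libraries correlated at -0.22 to -0.10 in the *Gpdh1* contrast. With the replicate number as a block, the counts were 3 in the *Gpdh1* contrast (*REPTOR-BP* adjusted p = 0.0644, *Lnk* 0.0581), 4 in the double contrast and 1 between controls. Fewer of all genes passed with that block as well, at 1527 higher and 1716 lower in the *Gpdh1* contrast. Between controls the count of 2 became 1 with library totals alone, voom or no filter. It was 0 with only the 6 control libraries, and 1 to 2 with 1 library left out. In the fit of only the control libraries, 292 of all 10532 genes passed as higher and 567 as lower. The main fit had 1535 and 1339 of 10880, so the calls lost there are not particular to these genes. Between mutants the count of 4 became 2 with the double mutants summed.

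Signs turned only for values that had not passed. In the *Gpdh1* contrast leaving out 1 library gave -0.0590 to 0.0831 for *Sesn* (below 0 without heterozygous or mutant replicate 2), -0.0480 to 0.117 for *AMPKalpha*, -0.0472 to 0.0503 for *eIF4G1* and -0.0658 to 0.0684 for *Ns2*, and *eIF4G1* was 0.00385 with 10 counts required in every library. Library totals alone gave *mTor* 0.0839, *S6k* 0.0550, *ImpL2* 0.0405 and *eIF4G1* 0.15 in that contrast, *Akt* 0.11 in the double contrast, *foxo* 0.0364 and *REPTOR* 0.12 between controls and *Sesn* 0.12 between mutants. With 1 library left out, *REPTOR* between controls ran from -0.0373 to 0.0110 and *Sesn* between mutants from -0.0683 to 0.0486. *Sesn* between mutants was 0.00200 with RLE size factors and 0.00198 with DESeq2. Causes were not tested. With the double mutants summed, fewer genes of the lists passed in the double contrast, as did fewer of all genes. That fit assumes that the lone library varies like the other groups.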
